A study of Homo sapiens with 9 samples.

Results

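The 34 genes described here encode Rac and Cdc42 GTPases and their close relative RHOG together with their exchange factors, GDP dissociation inhibitors, GTPase-activating proteins and effectors. They were chosen by name, and all 34 had a row among the 18522 genes of the deposited table. Expression was measured by RNA sequencing of poly(A) RNA in THP-1 cells, a line from a human acute monocytic leukemia, into which a lentivirus had brought a short hairpin RNA. The 3 groups of 3 libraries each were shRASSF2-1 and shRASSF2-2, which carried 2 different hairpins against RASSF2, and shCTRL, which carried a control hairpin. All 3 groups had been kept for 96 h in puromycin (1 ug/mL) after transduction, so the control cells shared the transduction and the drug, and no untransduced cells were analysed here. Each hairpin was a single construct in a single cell line, and whether the 3 libraries in each came from cultures grown apart is not in the labels. The p-values therefore measure the spread between these libraries, which may be technical.

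These small GTPases switch between a GTP-bound active form and a GDP-bound inactive form. Guanine nucleotide exchange factors load them with GTP, GTPase-activating proteins (GAPs) speed up GTP hydrolysis, and GDP dissociation inhibitors hold the inactive form in the cytosol. Active Rac and Cdc42 bind effectors such as the p21-activated kinases (PAKs). In monocytes and macrophages Rac drives membrane ruffling, phagocytic cup closure and the oxidase burst, and Cdc42 drives filopodia and polarity.

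Values are read counts divided by the authors' size factor for each library and are called normalised counts below. Fold changes are on the log2(value + 1) scale with their standard error after the ± sign, and p-values are limma's, adjusted by Benjamini-Hochberg over the 15465 genes that had at least 10 normalised counts in at least 3 libraries. A gene is said to rise or fall where the adjusted p was under 0.05.

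RASSF2 fell to 164 ± 32.2 normalised counts with shRASSF2-1 and 311 ± 43.5 with shRASSF2-2, against 1064 ± 48.4 with shCTRL (SD, n = 3 each). The libraries held 13.3 to 14.2 M reads with shRASSF2-1, 14.5 to 15.2 M with shRASSF2-2 and 13.9 to 20.1 M with shCTRL. The normalised totals were 12.6 to 12.8 M with shRASSF2-1 and 16.4 to 16.8 M with shRASSF2-2, against 15.9 to 16.9 M with shCTRL, so that scaling by total reads instead moved the median of all genes by 0.37 on the log2 scale for shRASSF2-1 against shCTRL. Control replicate 1 was less like the remaining controls, with correlations of 0.966 and 0.957 against 0.986 between the other two. Control replicates 1 and 2 were sequenced on one flow cell and the other 7 libraries on another. The pan-leukocyte marker PTPRC and the myeloid factor SPI1 were present in every library, and the summed level of 17 monocyte and myeloid markers was 37923 to 41107 with shRASSF2-1 and 75786 to 80592 with shRASSF2-2, against 46283 to 51966 with shCTRL. Of these 17 markers, shRASSF2-1 gave 4 increases and 7 decreases, and shRASSF2-2 gave 8 of each. The shares called were 64.7% and 94.1%, against 56.1% and 60.9% of all tested genes. With shRASSF2-2 CD14, CD68, CSF1R, PTPRC, ITGAM, CEBPB, CD4 and SPI1 rose (log2 fold changes 4.17, 2.39, 2.02, 1.85, 1.56, 0.91, 0.87 and 0.64). In contrast, MPO, ELANE, AZU1, S100A8, S100A9, LYZ, CEBPA and CD33 fell (-3.48, -2.64, -1.85, -1.62, -1.54, -1.27, -0.63 and -0.47). FCGR1A (0.05) did not pass. In a bulk measurement of this kind, fewer cells of a type and less RNA per cell cannot be told apart.

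With shRASSF2-1 most of the changes among the 34 genes were decreases under the deposited size factors. Scaling by total reads gave as many increases as decreases, while over all tested genes it called more increases than decreases. With shRASSF2-2 there were more increases than decreases under both scalings. Of the 34 genes, 32 passed the filter on low values, and DOCK1 and TIAM1 did not. With shRASSF2-1, 3 rose, 17 fell and 12 did not pass the test, against a background of 26.9% of all tested genes that rose and 29.2% that fell. The share of the 32 genes called in either direction, 62.5%, was near the 56.1% of all tested genes, whereas the share that fell was 53.1%. With shRASSF2-2, 16 rose, 8 fell and 8 did not pass, against a background of 31.8% up and 29.1% down. The share called was 75.0%, against 60.9% of all tested genes, with 50% up and 25.0% down. The median log2 fold change of the 32 genes was -0.48 with shRASSF2-1 and 0.25 with shRASSF2-2, while the medians of all tested genes were 0.02 and 0.04. The library values of the knockdown and control groups did not overlap for 20 of the 32 genes with shRASSF2-1 and for 24 with shRASSF2-2, against 61.3% and 64.5% of all tested genes. Both comparisons use the same 3 control libraries, so their values are not independent. Scaling by total reads instead gave 11 up and 11 down with shRASSF2-1, or 50% of calls up against 15%, and left the split with shRASSF2-2 at 16 up and 8 down. Over all 15465 tested genes, that scaling called 6981 up and 2596 down with shRASSF2-1. With shRASSF2-2 it called 4791 up and 4545 down.

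**Figure D1:**
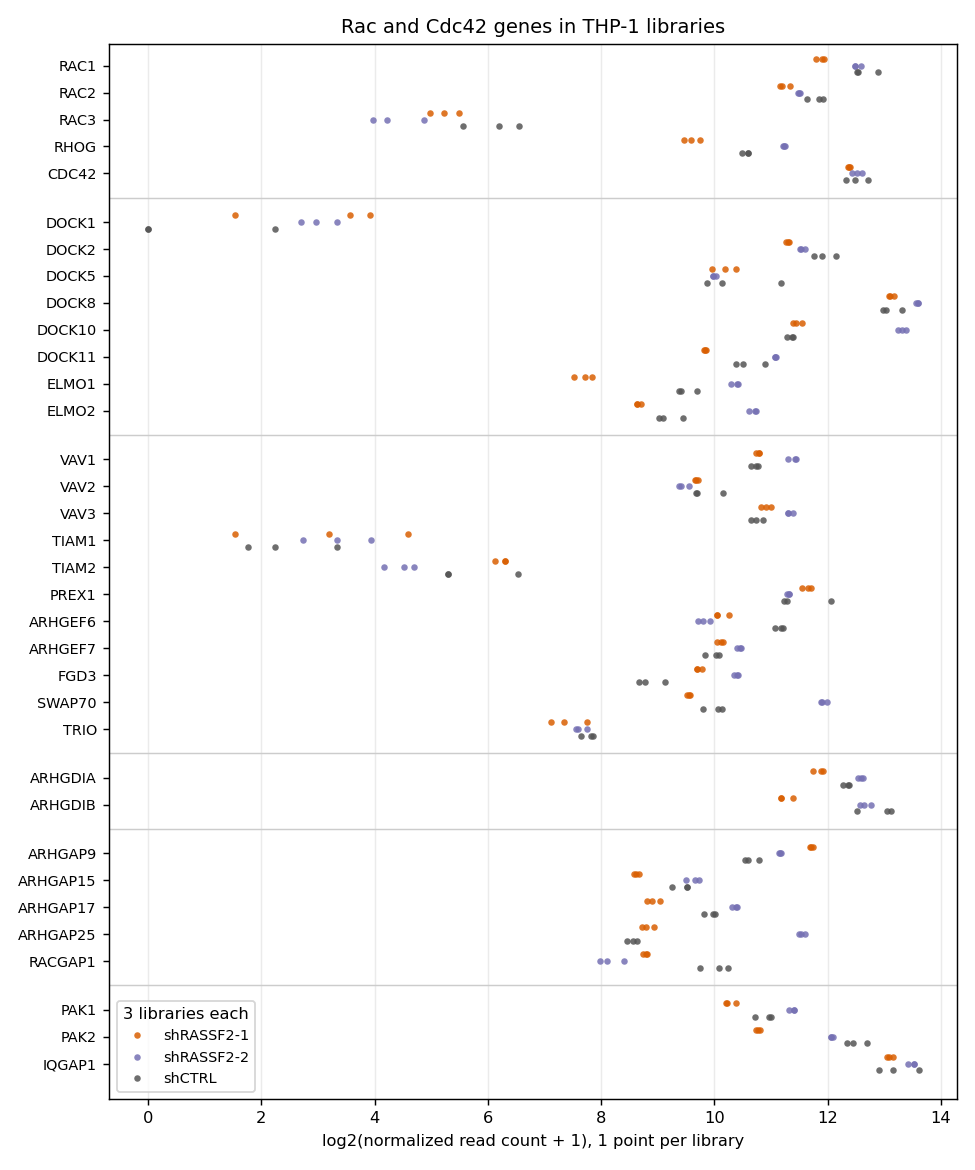
Level of each of the 34 genes (rows, grouped by role) in every library, as log2 of the normalised count plus 1 on the horizontal axis, with 1 point for each of 3 libraries in shRASSF2-1, shRASSF2-2 and shCTRL. ELMO1 and PAK2 are lowest in the shRASSF2-1 libraries, ARHGAP25, DOCK10 and SWAP70 are highest in the shRASSF2-2 libraries, and DOCK1, TIAM1, TIAM2 and RAC3 are low in all groups.

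**Figure D2:**
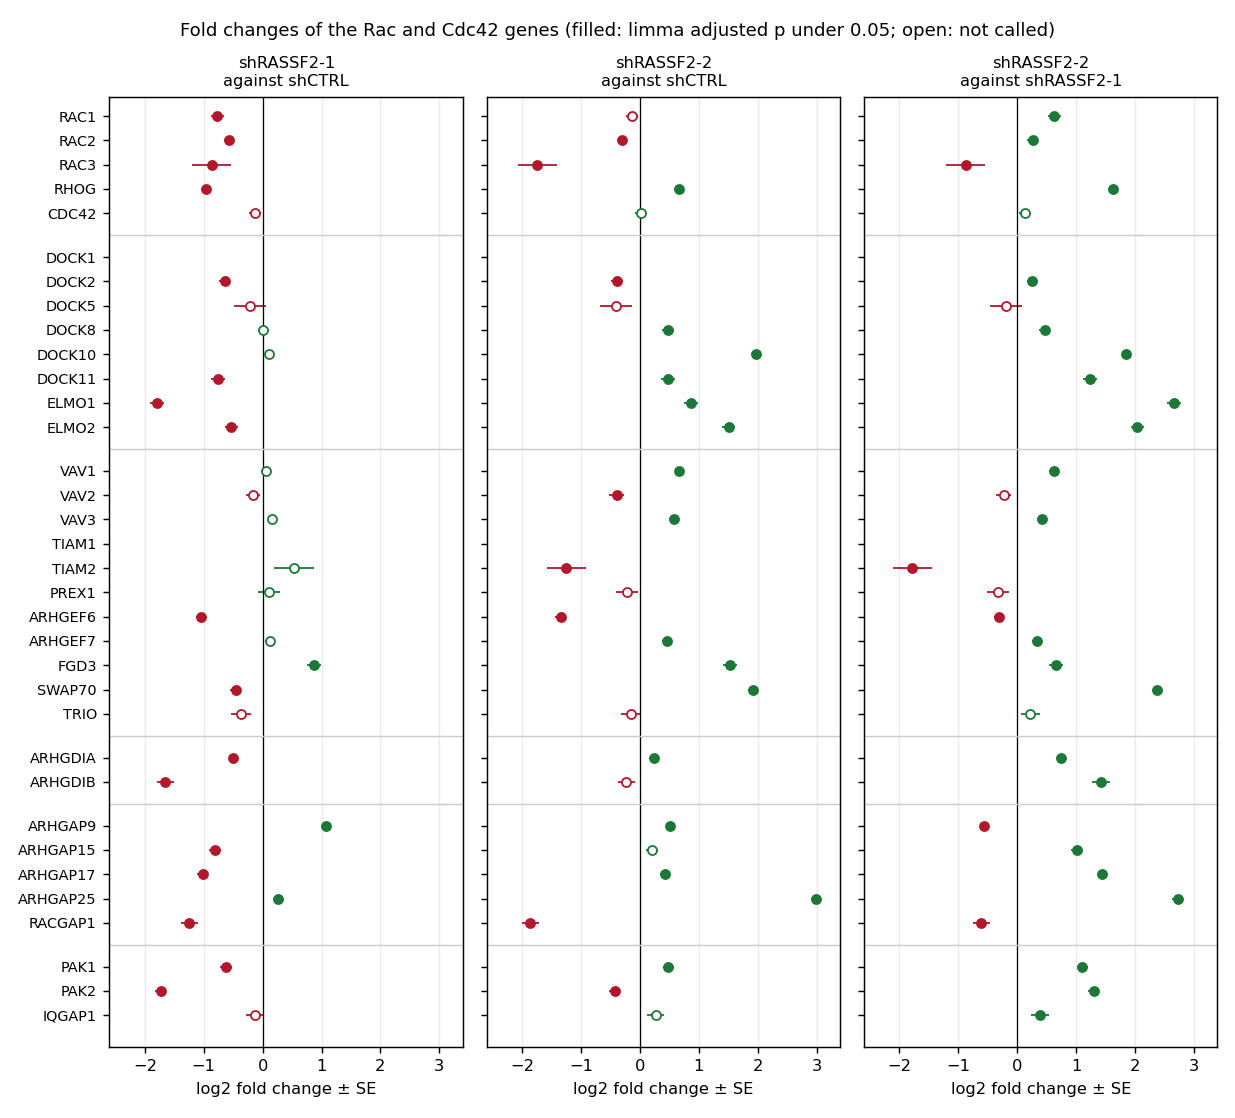
Log2 fold change (horizontal axis) with its standard error for each gene (rows), in panels for shRASSF2-1 against shCTRL, shRASSF2-2 against shCTRL and shRASSF2-2 against shRASSF2-1, in red below 0 and green above. Filled points passed the limma adjusted p of 0.05, 20, 24 and 27 genes from left to right, open points did not, and DOCK1 and TIAM1 were not tested.

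Of the 32 genes, 5 rose at least 2-fold with shRASSF2-2: ARHGAP25, DOCK10, SWAP70, FGD3 and ELMO2. Their promoter windows are printed because these genes moved together in that comparison. Each window runs from 250 bases before to 50 bases after a gene start, is written 5′ to 3′ on the gene's strand, and comes from RefSeq on build GRCh38.p14, where 26 of the 34 genes had an entry. Capitals mark GAGGAA or its reverse complement TTCCTC, the core letters bound by the myeloid ETS factor PU.1, the product of SPI1. The windows are chr2:68734561-68734860 on the plus strand, chr2:225042419-225042718 on the minus strand, chr11:9663827-9664126 on the plus strand, chr9:92947273-92947572 on the plus strand and chr20:46406566-46406865 on the minus strand. The ARHGAP25 window lies inside the span of the gene, at an internal start.
ARHGAP25: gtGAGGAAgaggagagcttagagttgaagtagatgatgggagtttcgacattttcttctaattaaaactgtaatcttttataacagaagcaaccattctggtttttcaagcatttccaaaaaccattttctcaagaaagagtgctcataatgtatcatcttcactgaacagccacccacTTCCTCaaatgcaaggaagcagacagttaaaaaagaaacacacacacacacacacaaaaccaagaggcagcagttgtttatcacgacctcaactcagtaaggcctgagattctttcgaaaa
DOCK10: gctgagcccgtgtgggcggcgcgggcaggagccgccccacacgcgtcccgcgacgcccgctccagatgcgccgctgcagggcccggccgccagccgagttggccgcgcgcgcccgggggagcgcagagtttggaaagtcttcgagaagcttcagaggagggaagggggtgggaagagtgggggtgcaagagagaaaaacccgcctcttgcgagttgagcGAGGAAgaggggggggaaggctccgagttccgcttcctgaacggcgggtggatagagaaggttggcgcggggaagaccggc
SWAP70: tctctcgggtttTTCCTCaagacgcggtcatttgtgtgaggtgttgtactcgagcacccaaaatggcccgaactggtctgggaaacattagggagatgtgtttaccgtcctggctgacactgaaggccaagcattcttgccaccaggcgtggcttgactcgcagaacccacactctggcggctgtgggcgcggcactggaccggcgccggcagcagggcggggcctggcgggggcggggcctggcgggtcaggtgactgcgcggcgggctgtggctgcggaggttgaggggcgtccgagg
FGD3: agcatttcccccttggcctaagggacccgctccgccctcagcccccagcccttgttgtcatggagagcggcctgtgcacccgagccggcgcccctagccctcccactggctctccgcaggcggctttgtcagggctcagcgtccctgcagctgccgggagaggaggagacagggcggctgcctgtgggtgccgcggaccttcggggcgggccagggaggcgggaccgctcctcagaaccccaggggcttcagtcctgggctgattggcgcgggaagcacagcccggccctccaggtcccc
ELMO2: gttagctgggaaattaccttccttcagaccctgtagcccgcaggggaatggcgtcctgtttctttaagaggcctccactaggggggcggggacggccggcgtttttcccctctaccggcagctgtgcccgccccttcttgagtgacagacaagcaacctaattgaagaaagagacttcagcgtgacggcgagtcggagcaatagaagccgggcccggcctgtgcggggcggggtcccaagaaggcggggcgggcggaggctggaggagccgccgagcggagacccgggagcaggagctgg
Matches lay at positions -248 and -71 in the ARHGAP25 window, at -31 in DOCK10 and at -238 in SWAP70, counted from the gene start to the first base of the match, and the FGD3 and ELMO2 windows held none. Of the 26 genes with an entry, 13 held the motif in this window, or 50%, against 27.9% of 35116 promoters of the same length. The motif was not confined to genes that rose. Of those that fell with shRASSF2-2, DOCK2, PAK2 and VAV2 held it, and ARHGEF6 and TIAM2 did not. The letters TTTGAA or TTCAAA, the cell cycle homology element found in genes repressed outside division, were in the windows of 4 of the 26 genes, or 15.4%, against 15.2% of all promoters. Those 4 were ARHGAP15, DOCK2, ARHGDIB and ARHGEF6. RACGAP1, RAC1, RAC2, RAC3, RHOG, DOCK5, ARHGAP9 and ARHGAP17 had no entry, so their promoters were not searched. The motifs share no overlapping match, and a match is only a description of the letters.

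RAC1, RAC2 and RAC3 fell with shRASSF2-1 and RAC2 and RAC3 with shRASSF2-2, RHOG fell with shRASSF2-1 and rose with shRASSF2-2, and CDC42 did not pass against shCTRL. Under scaling by total reads the falls of RAC2 and RAC3 with shRASSF2-1 did not pass. RAC1, the widely expressed Rac, had 3936, 3841 and 3559 normalised counts with shRASSF2-1 and 5712, 6162 and 5700.1 with shRASSF2-2, against 7557, 5973 and 5875 with shCTRL. All 3 shRASSF2-1 libraries lay below every control, and the shRASSF2-2 libraries overlapped the controls. RAC1 fell with shRASSF2-1 (log2 fold change -0.77 ± 0.10, adjusted p = 0.000138) and did not pass with shRASSF2-2 (log2 fold change -0.13 ± 0.10, adjusted p = 0.292). RAC2, the Rac of blood cells that serves the phagocyte oxidase, had 2600.5, 2285 and 2341 with shRASSF2-1 and 2857, 2914 and 2886 with shRASSF2-2, against 3197, 3669 and 3877 with shCTRL. Every knockdown library was below every control. RAC2 fell with shRASSF2-1 (log2 fold change -0.57 ± 0.09, adjusted p = 0.000373) and with shRASSF2-2 (log2 fold change -0.31 ± 0.09, adjusted p = 0.0130), but under scaling by total reads the shRASSF2-1 value was -0.19 with an adjusted p of 0.112. In GENCODE v29, 9 pseudogene copies of RAC1 are named, so its counts are uncertain. For DOCK11, ELMO2 and RACGAP1, described below, 1 copy each is named, and the same limit applies.

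RAC3, a Rac best known from the nervous system, was low throughout, with 30.5, 44.2 and 36.3 normalised counts with shRASSF2-1 and 14.7, 28.4 and 17.6 with shRASSF2-2, against 46.0, 72.2 and 92.8 with shCTRL. The shRASSF2-2 libraries were the lowest, and neither knockdown group overlapped the controls. RAC3 fell with shRASSF2-2 (log2 fold change -1.74 ± 0.33, adjusted p = 0.000942) and with shRASSF2-1 (log2 fold change -0.87 ± 0.33, adjusted p = 0.0443). The shRASSF2-1 call was lost when any 1 of 6 libraries was left out: the adjusted p was 0.109 and 0.151 without control replicates 2 and 3, 0.134, 0.0541 and 0.0990 without shRASSF2-1 replicates 1, 2 and 3, and 0.0569 without shRASSF2-2 replicate 3. It was 0.218 under scaling by total reads and 0.0525 with no filter on low values.

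RHOG, which activates Rac through the ELMO and DOCK proteins, had 858, 768 and 709 normalised counts with shRASSF2-1 and 2428, 2374 and 2417 with shRASSF2-2, against 1542, 1444 and 1550.3 with shCTRL. The 3 groups did not overlap, with the controls in the middle. RHOG fell with shRASSF2-1 (log2 fold change -0.96 ± 0.09, adjusted p = 7.31e-06) and rose with shRASSF2-2 (log2 fold change 0.67 ± 0.09, adjusted p = 6.11e-05). CDC42 had 5405, 5275 and 5331 with shRASSF2-1 and 5552, 6233 and 5870.4 with shRASSF2-2, against 5126, 6715 and 5728 with shCTRL. Both knockdown groups overlapped the controls, while all shRASSF2-2 libraries were above all shRASSF2-1 libraries. It did not pass with shRASSF2-1 (log2 fold change -0.13 ± 0.10, adjusted p = 0.319) or shRASSF2-2 (log2 fold change 0.01 ± 0.10, adjusted p = 0.913). Without control replicate 1 the shRASSF2-1 value was -0.22 with an adjusted p of 0.0171, whereas scaling by total reads gave 0.25 with an adjusted p of 0.0490. In GENCODE v29, 59.4% of the exon bases of CDC42 are shared with other annotated genes and 6 pseudogene copies are named, so its counts are uncertain.

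The ratio of RAC2 to RAC1 reads was 0.661, 0.595 and 0.658 with shRASSF2-1 and 0.50, 0.473 and 0.506 with shRASSF2-2, against 0.423, 0.614 and 0.660 with shCTRL. The 3 shRASSF2-2 libraries were below the 3 shRASSF2-1 libraries, by a mean of 0.37 on the log2 scale, while both groups overlapped the controls, of which replicate 1 was the lowest. A two-sided exact permutation test gave p = 0.6 for shRASSF2-1 against shCTRL, 0.4 for shRASSF2-2 against shCTRL and 0.1 for shRASSF2-2 against shRASSF2-1, and 0.1 is the smallest value that 3 against 3 libraries allow.

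DOCK proteins are Rac or Cdc42 exchange factors, and ELMO1 and ELMO2 are the scaffolds that bind DOCK1, DOCK2 and DOCK5 and carry the signal from RHOG. Of the 7 tested genes of this class, 4 fell and 3 did not pass with shRASSF2-1, while 5 rose, 1 fell and 1 did not pass with shRASSF2-2. The shares called, 57.1% and 85.7%, stand against 56.1% and 60.9% of all tested genes. ELMO1 had 211, 184 and 229.5 normalised counts with shRASSF2-1 and 1257, 1345 and 1360.5 with shRASSF2-2, against 831, 677 and 665 with shCTRL. The groups did not overlap, and the controls lay between the knockdowns. ELMO1 fell with shRASSF2-1 (log2 fold change -1.79 ± 0.12, adjusted p = 9.65e-07) and rose with shRASSF2-2 (log2 fold change 0.87 ± 0.12, adjusted p = 8.65e-05). ELMO2 had 396, 415 and 396 with shRASSF2-1 and 1713, 1573 and 1682 with shRASSF2-2, against 693, 519 and 544 with shCTRL. Again all shRASSF2-2 libraries were above and all shRASSF2-1 libraries below the controls. ELMO2 rose with shRASSF2-2 (log2 fold change 1.51 ± 0.11, adjusted p = 9.72e-07) and fell with shRASSF2-1 (log2 fold change -0.53 ± 0.11, adjusted p = 0.00239), a fall that scaling by total reads reduced to -0.15 with an adjusted p of 0.252.

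DOCK10, a Cdc42 exchange factor of white blood cells, had 2670.0, 2795 and 3012 normalised counts with shRASSF2-1 and 10731, 9668 and 10236 with shRASSF2-2, against 2673, 2659.8 and 2484 with shCTRL. The shRASSF2-2 libraries stood far above the rest, and the shRASSF2-1 libraries overlapped the controls. DOCK10 rose with shRASSF2-2 (log2 fold change 1.97 ± 0.08, adjusted p = 2.12e-08) and did not pass with shRASSF2-1 (log2 fold change 0.12 ± 0.08, adjusted p = 0.244), although scaling by total reads gave 0.49 with an adjusted p of 0.000336. DOCK11, a Cdc42 exchange factor, averaged 912 ± 7.96 with shRASSF2-1 and 2155 ± 10.0 with shRASSF2-2, against 1565 ± 303 with shCTRL (SD, n = 3 each). It fell with shRASSF2-1 (log2 fold change -0.76 ± 0.12, adjusted p = 0.000319) and rose with shRASSF2-2 (log2 fold change 0.48 ± 0.12, adjusted p = 0.00497), with no overlap among the groups.

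DOCK8, a Cdc42 exchange factor needed for leukocyte migration, averaged 8893 ± 286 normalised counts with shRASSF2-1 and 12278 ± 199 with shRASSF2-2, against 8862 ± 1147 with shCTRL. It rose with shRASSF2-2 (log2 fold change 0.48 ± 0.10, adjusted p = 0.00163) and had a log2 fold change of 0.01 with shRASSF2-1. Under scaling by total reads the shRASSF2-1 value was 0.39 with an adjusted p of 0.00332, and the difference of shRASSF2-2 from shRASSF2-1 was 0.07 (adjusted p = 0.486) in place of 0.47. DOCK2, the main Rac exchange factor of lymphocytes and neutrophils, averaged 2506 ± 47.6 with shRASSF2-1 and 2994 ± 82.5 with shRASSF2-2, against 3946 ± 538 with shCTRL, and fell with shRASSF2-1 (log2 fold change -0.65 ± 0.10, adjusted p = 0.000256) and with shRASSF2-2 (log2 fold change -0.39 ± 0.10, adjusted p = 0.00519). With flow cell as a covariate the shRASSF2-2 value was -0.21 with an adjusted p of 0.153. DOCK5, a Rac exchange factor of osteoclasts and other myeloid cells, averaged 1166 ± 168 with shRASSF2-1 and 1018 ± 19.0 with shRASSF2-2, against 1458 ± 749 with shCTRL, where replicate 1 alone reached 2316. It did not pass with either hairpin. The shRASSF2-2 value was -0.01 with an adjusted p of 0.936 without control replicate 1, and -0.66 with an adjusted p of 0.0396 without control replicate 3.

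Among the Dbl-type factors, the second large class of exchange factors, 10 were tested: 1 was higher and 2 lower with shRASSF2-1, and 5 were higher and 3 lower with shRASSF2-2. That is 30% and 80% called, against 56.1% and 60.9% of all tested genes. SWAP70, a phosphoinositide-binding factor that acts on Rac in membrane ruffles, had 763, 751 and 729 normalised counts with shRASSF2-1 and 3843, 4078 and 3771 with shRASSF2-2, against 894, 1129 and 1067 with shCTRL. The shRASSF2-2 libraries were the highest and the shRASSF2-1 libraries the lowest, with no overlap. SWAP70 rose with shRASSF2-2 (log2 fold change 1.93 ± 0.09, adjusted p = 6.05e-08) and fell with shRASSF2-1 (log2 fold change -0.45 ± 0.09, adjusted p = 0.00218), and scaling by total reads reduced that fall to -0.08 with an adjusted p of 0.524. FGD3, a Cdc42 exchange factor, had 833, 829 and 882 with shRASSF2-1 and 1353, 1365 and 1309 with shRASSF2-2, against 561, 435 and 407 with shCTRL. Every knockdown library lay above every control. FGD3 rose with shRASSF2-1 (log2 fold change 0.87 ± 0.12, adjusted p = 0.000111) and shRASSF2-2 (log2 fold change 1.53 ± 0.12, adjusted p = 1.08e-06).

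ARHGEF6 and ARHGEF7 are the alpha and beta PIX proteins, which bind PAKs and act on Rac and Cdc42. ARHGEF6 had 1223, 1054 and 1055 normalised counts with shRASSF2-1 and 966, 834 and 889 with shRASSF2-2, against 2154, 2361 and 2326 with shCTRL. All 6 knockdown libraries were below the lowest control. ARHGEF6 fell with shRASSF2-1 (log2 fold change -1.04 ± 0.09, adjusted p = 7.14e-06) and shRASSF2-2 (log2 fold change -1.35 ± 0.09, adjusted p = 5.61e-07). ARHGEF7 averaged 1101 ± 45.4 with shRASSF2-1 and 1392 ± 31.4 with shRASSF2-2, against 1015 ± 88.8 with shCTRL. It rose with shRASSF2-2 (log2 fold change 0.46 ± 0.09, adjusted p = 0.000886) and did not pass with shRASSF2-1 (log2 fold change 0.12 ± 0.09, adjusted p = 0.259), where scaling by total reads gave 0.50 with an adjusted p of 0.000939. TIAM2, a Rac exchange factor, had 68.6, 77.8 and 78 with shRASSF2-1 and 24.9, 17.0 and 22 with shRASSF2-2, against 91.9, 38.2 and 38.4 with shCTRL. The shRASSF2-2 libraries were the lowest, and control replicate 1 was the highest of all. TIAM2 fell with shRASSF2-2 (log2 fold change -1.25 ± 0.33, adjusted p = 0.00782) and did not pass with shRASSF2-1 (log2 fold change 0.53 ± 0.33, adjusted p = 0.198). Its shRASSF2-1 value was 0.94 with an adjusted p of 0.00514 without control replicate 1, and 0.90 with an adjusted p of 0.0338 under scaling by total reads. In addition, with flow cell as a covariate its shRASSF2-2 value was -0.84 with an adjusted p of 0.155.

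The VAV proteins are exchange factors switched on by tyrosine phosphorylation below immune receptors, and VAV1 is the blood cell form. VAV1 averaged 1752 ± 34.9 normalised counts with shRASSF2-1 and 2689 ± 132 with shRASSF2-2, against 1687 ± 77.8 with shCTRL, and rose with shRASSF2-2 (log2 fold change 0.67 ± 0.07, adjusted p = 2.15e-05). VAV3 averaged 1934 ± 127 with shRASSF2-1 and 2575 ± 82.6 with shRASSF2-2, against 1723 ± 120.1 with shCTRL, and rose with shRASSF2-2 (log2 fold change 0.58 ± 0.08, adjusted p = 0.000139). VAV2 averaged 819 ± 15.4 with shRASSF2-1 and 700.1 ± 43.0 with shRASSF2-2, against 929 ± 186 with shCTRL, and fell with shRASSF2-2 (log2 fold change -0.39 ± 0.13, adjusted p = 0.0206). None of the 3 passed with shRASSF2-1, where the log2 fold changes were 0.06 for VAV1, -0.16 for VAV2 and 0.17 for VAV3. Under scaling by total reads VAV1 had 0.43 (adjusted p = 0.0010) and VAV3 0.54 (adjusted p = 0.000445) with shRASSF2-1, and VAV3 then differed by 0.02 between the hairpins (adjusted p = 0.837). The VAV2 call was lost without shRASSF2-2 replicate 1 or 3 (adjusted p = 0.0712 and 0.0625), in a fit of only those groups (adjusted p = 0.0529) and with flow cell as a covariate (adjusted p = 0.273), and without control replicate 1 its value was -0.23. PREX1, a Rac factor activated by G protein subunits and phosphoinositides, averaged 3187 ± 188 with shRASSF2-1 and 2536 ± 24.8 with shRASSF2-2, against 3064 ± 1058 with shCTRL, where replicate 1 reached 4284. It did not pass with either hairpin, but its shRASSF2-1 value was 0.38 with an adjusted p of 9.24e-05 without control replicate 1, and 0.49 with an adjusted p of 0.0314 under scaling by total reads. TRIO, which acts on Rac and RhoG, averaged 172 ± 39.7 with shRASSF2-1 and 198 ± 15.2 with shRASSF2-2, against 219 ± 17.0 with shCTRL, and passed in no comparison of all 9 libraries. Without shRASSF2-1 replicate 2 its shRASSF2-1 value was -0.54 with an adjusted p of 0.0163.

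Both GDP dissociation inhibitors fell with shRASSF2-1, though under scaling by total reads ARHGDIA did not pass. ARHGDIB, the inhibitor of blood cells, had 2672, 2324 and 2322 normalised counts with shRASSF2-1 and 6113, 7012 and 6437 with shRASSF2-2, against 5843, 8943 and 8522 with shCTRL. The shRASSF2-1 libraries were far below the lowest control, and the shRASSF2-2 libraries lay within the control range. ARHGDIB fell with shRASSF2-1 (log2 fold change -1.65 ± 0.15, adjusted p = 7.67e-06) and did not pass with shRASSF2-2 (log2 fold change -0.23 ± 0.15, adjusted p = 0.204). Without control replicate 1, the lowest control, the shRASSF2-2 value was -0.42 with an adjusted p of 0.000167. ARHGDIA, the widely expressed inhibitor, averaged 3683 ± 225 with shRASSF2-1 and 6139 ± 199 with shRASSF2-2, against 5196 ± 214 with shCTRL. It fell with shRASSF2-1 (log2 fold change -0.50 ± 0.08, adjusted p = 0.000360) and rose with shRASSF2-2 (log2 fold change 0.24 ± 0.08, adjusted p = 0.0211). The fall was -0.12 with an adjusted p of 0.190 under scaling by total reads, and the rise had an adjusted p of 0.0580 when control replicate 3 was dropped, and of 0.0646 and 0.0713 when shRASSF2-2 replicates 1 and 2 were. In GENCODE v29, 26.2% of the ARHGDIA exon bases overlap an antisense gene, and the sources used here do not say whether counting used strand.

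For the 5 GAPs there were 2 increases and 3 decreases with shRASSF2-1, and 3 increases and 1 decrease with shRASSF2-2. Calls thus covered 100% and 80% of them, against 56.1% and 60.9% of all tested genes. ARHGAP25, a Rac GAP of blood cells that limits phagocytosis, had 424, 489 and 442 normalised counts with shRASSF2-1 and 2882, 2975 and 3101 with shRASSF2-2, against 398, 378 and 349.6 with shCTRL. The shRASSF2-2 libraries stood far above all the others, and the shRASSF2-1 libraries were all above the highest control. ARHGAP25 rose with shRASSF2-2 (log2 fold change 2.99 ± 0.09, adjusted p = 2.82e-09), the largest log2 fold change among the 32 tested genes. It also rose with shRASSF2-1 (log2 fold change 0.27 ± 0.09, adjusted p = 0.0274), a call lost without control replicate 2 or 3 and without shRASSF2-1 replicate 2 or 3 (adjusted p = 0.0539, 0.0794, 0.117 and 0.0559), and in a fit of only those groups (adjusted p = 0.0820). Its promoter window, printed above, held 2 matches to the PU.1 letters.

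ARHGAP9, a GAP for Cdc42 and Rac in blood cells, had 3416, 3364 and 3315 normalised counts with shRASSF2-1 and 2261, 2310.3 and 2278 with shRASSF2-2, against 1495, 1539.6 and 1765 with shCTRL. The shRASSF2-1 libraries were the highest and the controls the lowest. ARHGAP9 rose with shRASSF2-1 (log2 fold change 1.08 ± 0.08, adjusted p = 2.18e-06) and shRASSF2-2 (log2 fold change 0.52 ± 0.08, adjusted p = 0.000240). ARHGAP17, a Cdc42 and Rac GAP also called RICH1, had 449.6, 475 and 524 with shRASSF2-1 and 1332, 1344 and 1273 with shRASSF2-2, against 899.9, 1036 and 1006 with shCTRL. The controls lay between the knockdown groups, without overlap. ARHGAP17 fell with shRASSF2-1 (log2 fold change -1.02 ± 0.09, adjusted p = 7.4e-06) and rose with shRASSF2-2 (log2 fold change 0.43 ± 0.09, adjusted p = 0.00214). ARHGAP15, a Rac GAP of neutrophils, averaged 393 ± 13.6 with shRASSF2-1 and 796 ± 63.7 with shRASSF2-2, against 692 ± 73.4 with shCTRL. It fell with shRASSF2-1 (log2 fold change -0.81 ± 0.11, adjusted p = 9.68e-05) and did not pass with shRASSF2-2 (log2 fold change 0.20 ± 0.11, adjusted p = 0.117).

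RACGAP1, the GAP of the central spindle that positions the cleavage furrow in cytokinesis, had 447, 426 and 443 normalised counts with shRASSF2-1 and 252, 338 and 276 with shRASSF2-2, against 856, 1217 and 1084 with shCTRL. All knockdown libraries were below the controls, and the shRASSF2-2 libraries were the lowest. RACGAP1 fell with shRASSF2-1 (log2 fold change -1.25 ± 0.15, adjusted p = 4.57e-05) and shRASSF2-2 (log2 fold change -1.86 ± 0.15, adjusted p = 1.46e-06). Among 16 genes that act with it in cytokinesis, 14 fell and 0 rose with shRASSF2-1, and with shRASSF2-2 15 fell and 1 rose, with median log2 fold changes of -1.65 and -3.29. The shares that fell were 87.5% and 93.75%, against 29.2% and 29.1% of all tested genes. The kinesin KIF23, the partner of RACGAP1 in the centralspindlin complex, had values of -1.45 with shRASSF2-1 and -3.28 with shRASSF2-2. The mitotic kinase PLK1 had -1.99 and -3.30, the kinesin KIF20A -2.01 and -3.87, and the citron kinase gene CIT -1.31 and -2.96, in the same order of hairpins. All 4 passed the test in both comparisons. The part that the share of dividing cells has in the RACGAP1 value was not tested.

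Of the 3 effectors, 2 fell with shRASSF2-1, while shRASSF2-2 gave 1 increase and 1 decrease. With each hairpin 66.7% were called, against 56.1% and 60.9% of all tested genes. PAK2, the widely expressed p21-activated kinase, had 1701, 1742 and 1793 normalised counts with shRASSF2-1 and 4261, 4357 and 4252 with shRASSF2-2, against 6677, 5574 and 5199 with shCTRL. The shRASSF2-1 libraries were the lowest, and neither knockdown overlapped the controls. PAK2 fell with shRASSF2-1 (log2 fold change -1.73 ± 0.09, adjusted p = 3.17e-07) and shRASSF2-2 (log2 fold change -0.43 ± 0.09, adjusted p = 0.00249), the second value being -0.28 with an adjusted p of 0.0761 with flow cell as a covariate. PAK1, its close relative, averaged 1238 ± 86.5 with shRASSF2-1 and 2659.9 ± 90.5 with shRASSF2-2, against 1908 ± 202 with shCTRL. In GENCODE v29, 14.8% of its exon bases overlap an antisense gene, as do 11.7% of those of TIAM2 and 10.3% of those of ARHGAP9 with other genes, so their counts are uncertain. PAK1 fell with shRASSF2-1 (log2 fold change -0.62 ± 0.10, adjusted p = 0.000300) and rose with shRASSF2-2 (log2 fold change 0.48 ± 0.10, adjusted p = 0.00123), with a fall of -0.24 and an adjusted p of 0.0563 under scaling by total reads. IQGAP1, a scaffold that binds active Rac and Cdc42 and links them to actin, averaged 8783 ± 336 with shRASSF2-1 and 11526 ± 480.5 with shRASSF2-2, against 9775 ± 2484 with shCTRL, where replicate 1 reached 12531. IQGAP1 did not pass against shCTRL with all 9 libraries, but without control replicate 1 the shRASSF2-2 value was 0.46 with an adjusted p of 6.62e-05.

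The hairpins were also compared directly, a contrast that leaves the control libraries out of the difference, though the error still came from the fit of all 9 libraries. Of the 32 genes, 22 were higher with shRASSF2-2 than with shRASSF2-1, 5 were lower and 5 did not pass, against a background of 30.0% of all tested genes higher and 28.5% lower. The share called was 84.4%, against 58.5% of all tested genes, and the median log2 difference was 0.54, against -0.03 for all tested genes. In 30 of the 32 genes the library values of the hairpins did not overlap, against 74.0% of all tested genes. A fit of only the 2 hairpin groups gave 23 higher and 7 lower, beside 5511 and 5434 of 15164 tested genes. There PREX1 (-0.33), VAV2 (-0.23) and CDC42 (0.14) passed, with limma adjusted p of 0.000125, 0.00775 and 0.0332. ELMO1 differed by 2.67, ARHGAP25 by 2.72, SWAP70 by 2.38 and ELMO2 by 2.04 on the log2 scale. The genes that were lower with shRASSF2-2 were RAC3, TIAM2, ARHGEF6, ARHGAP9 and RACGAP1, with values of -0.88, -1.78, -0.31, -0.56 and -0.61. In some genes leaving out 1 library moved the adjusted p past 0.05 while the difference itself moved little. Over all such fits it stayed at 0.23 to 0.27 for DOCK2, 0.37 to 0.43 for IQGAP1 and 0.23 to 0.32 for RAC2. Leaving out shRASSF2-1 replicate 1, 2 or 3, shRASSF2-2 replicate 1, 2 or 3 or control replicate 2 ended those of DOCK2 (0.26) and IQGAP1 (0.39), with adjusted p up to 0.123 and 0.112. The call of RAC2 (0.26) ended without shRASSF2-1 replicate 2 or 3 or shRASSF2-2 replicate 1, 2 or 3, with an adjusted p up to 0.105. That of RAC3 ended without any 1 shRASSF2-1 library, shRASSF2-2 replicate 1 or 3 or control replicate 2, with an adjusted p up to 0.138, and that of ARHGEF6 without shRASSF2-1 replicate 1 or shRASSF2-2 replicate 2, at 0.0702 and 0.0652. Under scaling by total reads 16 genes were higher and 8 lower, or 66.7% of calls higher against 81.5%. Over all tested genes that scaling gave 2905 higher and 7318 lower, where the deposited size factors gave 4647 and 4403. RASSF2 itself differed in the same contrast by 0.93 on the log2 scale, the higher level being that of shRASSF2-2.

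For RHOG, ELMO1, ELMO2, DOCK11, SWAP70, ARHGAP17, PAK1 and ARHGDIA, which fell with shRASSF2-1 and rose with shRASSF2-2, both values rest on the same controls. These 8 genes are named because of those opposite calls, so their difference between the hairpins is a description. They are 25.0% of the 32 genes, and 5.65% of all tested genes had calls in these directions. The 34 genes were chosen with earlier results known, so no test is attached to that share. Under scaling by total reads the falls of ELMO2, SWAP70, PAK1 and ARHGDIA with shRASSF2-1 did not pass, while those of RHOG, ELMO1, DOCK11 and ARHGAP17 did.

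**Figure D3:**
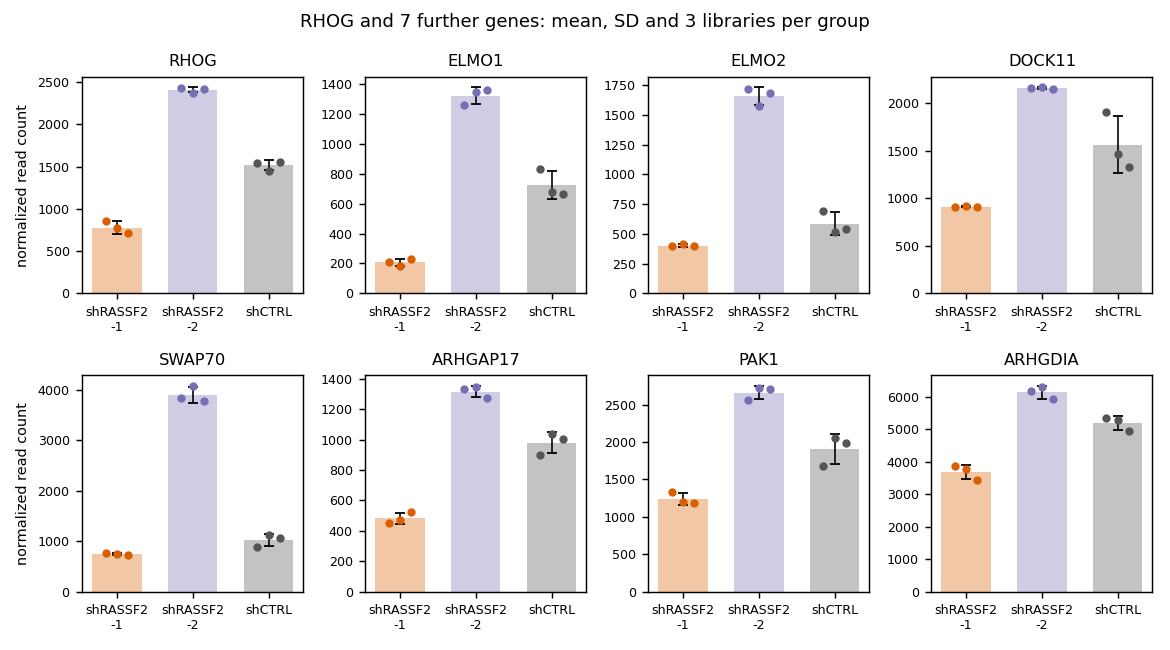
Normalised counts of RHOG, ELMO1, ELMO2, DOCK11, SWAP70, ARHGAP17, PAK1 and ARHGDIA, with points for libraries, bars for the mean and whiskers for the SD of 3 libraries in shRASSF2-1, shRASSF2-2 and shCTRL. In each panel the shRASSF2-1 libraries lie below and the shRASSF2-2 libraries above all 3 controls, though for ELMO2, SWAP70, PAK1 and ARHGDIA the fall with shRASSF2-1 does not pass under scaling by total reads.

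**Figure D4:**
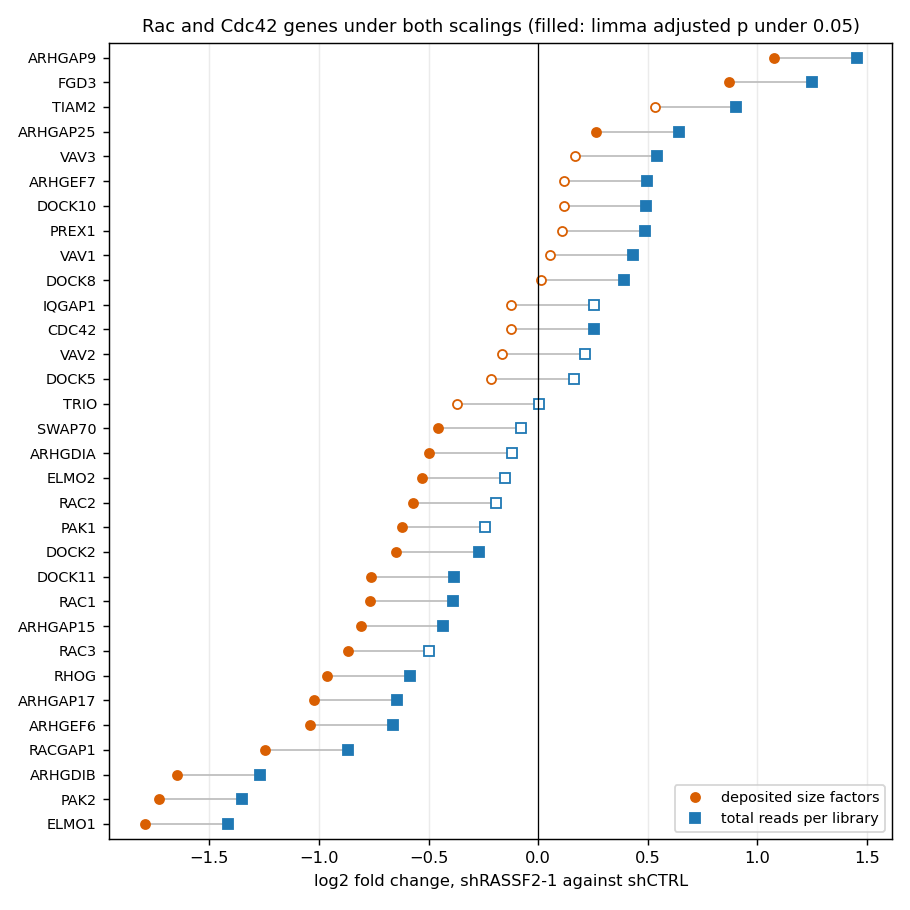
Log2 fold change of the 32 tested genes (rows) for shRASSF2-1 against shCTRL, as circles under the deposited size factors and squares under scaling by total reads, filled where the limma adjusted p was under 0.05. Each square lies to the right of its circle by about the 0.37 shift of the all-gene median: ARHGAP9, at the top, has its circle at 1.08, and CDC42 has its circle at -0.13 and its square at 0.25.

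Other regulators were taken from lists of genes of the same pathways. Among 44 tested exchange factors and GAPs of Rac and Cdc42 outside the 34 genes, 9 were higher and 10 lower with shRASSF2-1, and 24 were higher and 4 lower with shRASSF2-2. The share called was 43.2% with shRASSF2-1 and 63.6% with shRASSF2-2, against 56.1% and 60.9% of all tested genes. The median log2 fold changes were 0.17 and 0.58. With shRASSF2-1, scaling by total reads gave 25 up and 6 down, beside 6981 and 2596 of all tested genes. Without control replicate 1, 19 were up, beside 4986 of all genes tested in that fit. DOCK4, a Rac exchange factor, rose with both hairpins, to 557 ± 30.3 normalised counts with shRASSF2-1 and 2324 ± 140.3 with shRASSF2-2, against 131 ± 13.7 with shCTRL (log2 fold changes 2.08 and 4.14). FGD2, a Cdc42 exchange factor of antigen-presenting cells, averaged 641 ± 38.7 with shRASSF2-1 and 4582 ± 526 with shRASSF2-2, against 926 ± 88.7 with shCTRL, and fell with the first hairpin and rose with the second (-0.53 and 2.30). STARD13, a GAP, was lower with shRASSF2-1 (-1.59) and higher with shRASSF2-2 (2.14), and ITSN1, a Cdc42 exchange factor of endocytosis, had -0.50 and 1.87.

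A further list of 53 tested genes outside the 34 held effectors of Rac and Cdc42 together with adaptors, such as CRK and PXN, and oxidase subunits. Of these, 16 were higher and 13 lower with shRASSF2-1, and 27 were higher and 15 lower with shRASSF2-2. The medians were 0.13 and 0.35. In all, 54.7% and 79.2% were called, against 56.1% and 60.9% of all tested genes. Scaling by total reads gave 32 up and 6 down with shRASSF2-1, beside 6981 and 2596 of all tested genes. Flow cell as a covariate gave 6 down with shRASSF2-1 and 9 down with shRASSF2-2. Over all tested genes that covariate gave 3582 and 3644 down, where the fit without it gave 4509 and 4504. CYBB, the catalytic subunit of the phagocyte oxidase that Rac activates, rose to 3486 ± 190.0 normalised counts with shRASSF2-1 and 11314 ± 482 with shRASSF2-2, against 1062 ± 96.7 with shCTRL. The formin FMNL2, a Cdc42 effector of filopodia, did not pass with shRASSF2-1 (-0.05) and rose with shRASSF2-2 (3.85). DIAPH3 and IQGAP3, both linked to dividing cells, fell with both hairpins, with values of -1.74 and -3.17 for DIAPH3 and -1.93 and -3.77 for IQGAP3.

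Of 32 genes of the RhoA branch, 6 were higher and 8 lower with shRASSF2-1, and 16 were higher and 5 lower with shRASSF2-2. The RhoA exchange factor NET1 fell with both hairpins (-0.89 and -2.26), and the GAP ARHGAP18 rose with both (0.62 and 2.39). The myosin light chain MYL9 had -0.72 with shRASSF2-1 and 1.75 with shRASSF2-2, both past the test. ARHGEF3, a RhoA exchange factor, rose with shRASSF2-2 (1.88) and did not pass with shRASSF2-1 (0.30). The share called was 43.8% with shRASSF2-1 and 65.6% with shRASSF2-2, against 56.1% and 60.9% of all tested genes. With shRASSF2-1, 12 were up under scaling by total reads and 12 without control replicate 1, beside 6981 and 4986 of all genes tested in those fits.

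To compare levels between genes, normalised counts were divided by the length of the gene's merged exons in GENCODE v29, and isoform use was not known. With shRASSF2-1 the highest were CDC42 at 1483 ± 18.0 normalised counts per kilobase, ARHGDIA at 1269 ± 77.4 and RAC1 at 1213 ± 63.0 (SD, n = 3). With shRASSF2-2 ARHGDIB led at 3102 ± 216, followed by ARHGDIA at 2115 ± 68.4 and RAC1 at 1881 ± 84.5. With shCTRL ARHGDIB led at 3696 ± 799.7, followed by RAC1 at 2077 ± 303, ARHGDIA at 1790 ± 73.6, CDC42 at 1628 ± 223 and RAC2 at 1414 ± 138. In shCTRL the gaps between RAC1, ARHGDIA, CDC42 and RAC2 as neighbours in this order were smaller than the larger SD of each pair. All genes were measured in the same libraries, so these SDs do not measure the spread of a difference between genes. The order of these neighbours was not tested. The level of ARHGDIB per kilobase with shRASSF2-1 was 1161 ± 95.7, below that of CDC42 and close to those of ARHGDIA and RAC1.

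**Figure D5:**
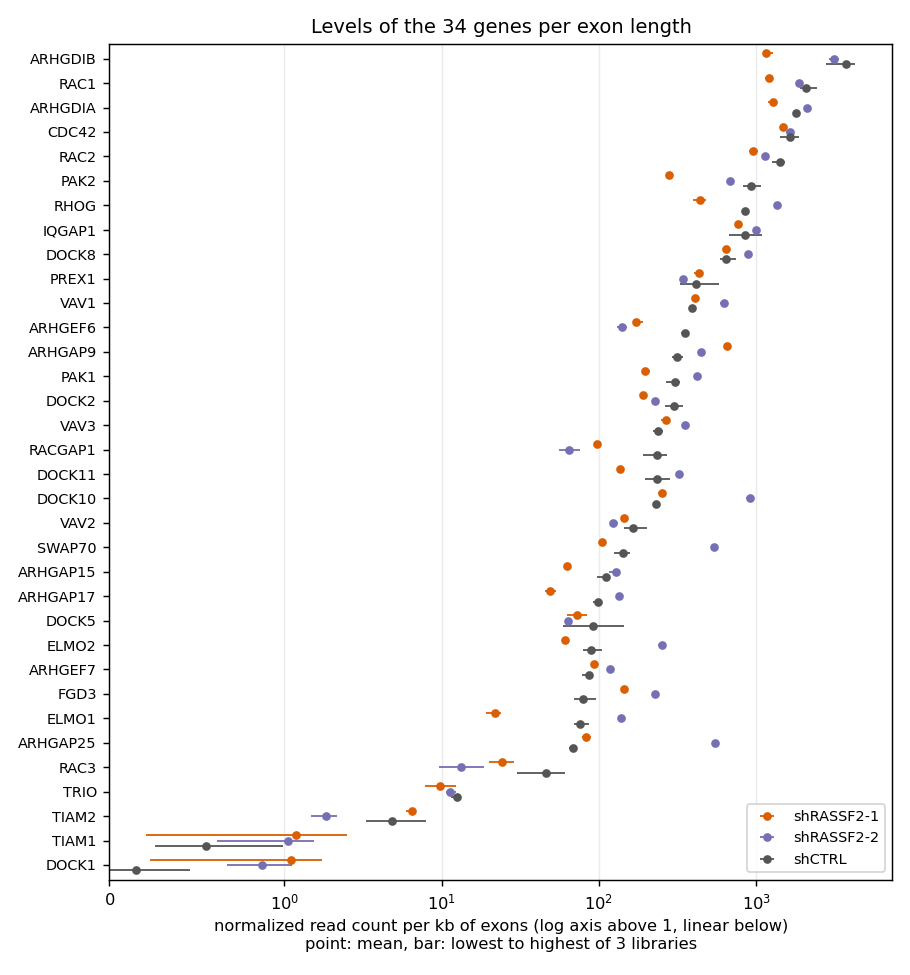
Normalised counts per kilobase of merged exon for the 34 genes (rows), on an axis that is logarithmic above 1 and linear below, with points for the mean and bars from the lowest to the highest of 3 libraries in shRASSF2-1, shRASSF2-2 and shCTRL. ARHGDIB is highest with shRASSF2-2 and shCTRL, CDC42 is highest with shRASSF2-1, and DOCK1 and TIAM1 are at the bottom.

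The replicates varied most in the control group. The coefficient of variation of the tested genes had a median of 5.55% with shRASSF2-1 and 3.90% with shRASSF2-2, against 12.9% with shCTRL. DOCK1, which acts with ELMO proteins in the uptake of dead cells, and TIAM1, a Rac exchange factor, were too low to test. DOCK1 had 1.91, 14.1 and 10.9 normalised counts with shRASSF2-1 and 6.80, 9.08 and 5.49 with shRASSF2-2, against 0, 0 and 3.75 with shCTRL. TIAM1 had 1.91, 23.0 and 8.16 with shRASSF2-1 and 5.67, 9.08 and 14.3 with shRASSF2-2, against 2.42, 9.13 and 3.75 with shCTRL. For both, shRASSF2-1 replicate 2 was the highest library, and it was also the highest for the epithelial marker EPCAM, at 18.6. Of 10 epithelial markers 5 were tested, of which 3 rose with shRASSF2-1 and 5 with shRASSF2-2. These were 60% and 100%, against 26.9% and 31.8% of all tested genes. The summed level of the epithelial markers was 407 to 2272 with shRASSF2-1 and 1555 to 1967 with shRASSF2-2, against 21.8, 32.4 and 721 with shCTRL. Control replicates 1 and 2, with the low sums, were sequenced on one flow cell. Control replicate 3 was on the other flow cell with all hairpin libraries. Library values of hairpin and control did not overlap for 0 of the 5 tested markers with shRASSF2-1 and 4 with shRASSF2-2, against 61.3% and 64.5% of all tested genes. The part of the flow cell in these rises was not tested. None of the 7 with a row was at 0 in every library. Of 11 markers of connective tissue and vessels 7 were tested, of which 4 were higher and 1 lower with shRASSF2-1, and 5 higher and 1 lower with shRASSF2-2. So 71.4% and 85.7% were called, against 56.1% and 60.9% of all tested genes. The sum of the connective tissue and vessel markers was 4201 to 4974 with shRASSF2-1 and 4289 to 4830 with shRASSF2-2, against 5380 to 7163 with shCTRL. Most of it was PECAM1, which monocytes also express. Of 12 lymphoid and erythroid markers 2 were tested, and their summed level was 188 to 200 with shRASSF2-1 and 70.3 to 77.2 with shRASSF2-2, against 234 to 289 with shCTRL. The part of such cells in the values of the Rac and Cdc42 genes was not tested.

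In the authors' deposited table, which holds a single knockdown against control comparison, 10 of the 34 genes had an adjusted p under 0.05, or 29.4%, against 31.8% of the 18522 genes in the authors' deposited table. Which libraries were used for it is not recorded in the header. For the 8 genes with opposite calls, the deposited log2 fold change lay between those of the hairpins. For RHOG it was 0.07, against -0.96 with shRASSF2-1 and 0.67 with shRASSF2-2. None of these 8 genes had a deposited adjusted p under 0.05, so the count of 10 leaves them out.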

How the data were processed

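Per the submitters' processing notes, build hg38 was used with DESeq2 1.18.1, featureCounts 1.6.2, HISAT2 2.1.0 and Picard, and the role of each tool, the annotation and the use of strand are not given in the sources used here. The file header calls the library columns counts, but the deposited values are a normalised signal, in which each library's gene counts were divided by its own size factor. The worth of 1 read went into 100% of the values a whole number of times, with a tolerance of 0.001, which gave the reads back. For a single comparison, per the file headers, there are also log2 fold changes with adjusted p-values by the authors. For 195 genes the table gives an identifier and no symbol, and these stayed in the tests with 0.0882% of reads.

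Tests used log2 of the value plus a pseudocount of 1 and limma-trend (limma 3.58.1, R 4.3.3), with all 9 libraries in a single fit and group as its only term. The filter left out 3057 genes. The count tests in edgeR 4.0.16 and DESeq2 1.42.0 on the recovered reads were alternatives, and edgeR with TMM called 4145 genes up and 4584 down with shRASSF2-1, where limma called 4160 and 4509. The fit was checked on simulated data. The design also covered scaling, filters, pseudocounts, flow cell, a replicate block and leaving out libraries. The 34 genes and all lists were chosen with earlier results of these data known. Values in every library are given for the GTPases and for genes called with a fold change of at least 2 in either comparison with shCTRL, and for each other list the 4 called genes with the smallest p and a mean of at least 20 are named. The result of 1 list is not reported here. Depth was 13.3 to 20.1 M reads per library, and counts near the low end, such as those of DOCK1, TIAM1, TIAM2 and RAC3, carry the largest relative counting error. Promoter letters and gene lengths came from RefSeq (GRCh38.p14) and GENCODE v29.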

Additional observations from a re-analysis of the deposited data

Results flagged for a closer look

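In 8 genes every shRASSF2-2 library lay above and every shRASSF2-1 library below the controls, with calls in both comparisons. That was 25.0% of the 32 genes, against 5.65% of all tested genes with calls in these directions, and 2.41% in the reverse directions. On the log2 scale shRASSF2-2 minus shRASSF2-1 was 1.63 for RHOG, 1.24 for DOCK11, 2.67 for ELMO1, 2.04 for ELMO2, 2.38 for SWAP70, 1.45 for ARHGAP17, 1.10 for PAK1 and 0.74 for ARHGDIA. Because the genes were picked by their opposite calls, these differences are a description with no test. Under scaling by total reads the shRASSF2-1 falls of ELMO2, SWAP70, PAK1 and ARHGDIA no longer passed, with values of -0.15, -0.08, -0.24 and -0.12.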

How the results depend on the processing

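Scaling by total reads in place of the deposited size factors changed the most. It gave 11 genes up and 11 down with shRASSF2-1, against 3 and 17, and 8 genes lower with shRASSF2-2 than with shRASSF2-1, against 5. Over all tested genes it gave 6981 up and 2596 down with shRASSF2-1, against 4160 and 4509. In shRASSF2-2 against shRASSF2-1 it gave 2905 higher and 7318 lower, against 4647 and 4403. It turned the sign of CDC42 with shRASSF2-1 against shCTRL to 0.25, and in shRASSF2-2 against shRASSF2-1 it gave -0.13 for RAC2, -0.25 for CDC42, -0.14 for DOCK2, -0.0527 for ARHGEF7 and -0.000216 for IQGAP1. The shift of the all-gene median under that scaling is part of each of these values. A fit of only those 7 libraries that were sequenced together gave 5 genes up with shRASSF2-1. It has control replicate 3 as its only control, whose spread is assumed to be that of the hairpin groups. Flow cell as a covariate gave 4 genes down and 17 up with shRASSF2-2, or 81.0% of calls up against 66.7%. Over all 15465 tested genes that covariate gave 3644 down and 3840 up with shRASSF2-2, against 4504 and 4913. Leaving out each library in turn gave 2 to 5 genes up and 16 to 18 down with shRASSF2-1, 15 to 17 up and 7 to 9 down with shRASSF2-2, and 19 to 22 higher and 3 to 7 lower in shRASSF2-2 against shRASSF2-1. Without control replicate 1 there were 5 up with shRASSF2-1, beside 4986 of all genes tested in that fit. Without shRASSF2-1 replicate 1 there were 3 lower in the direct comparison, beside 3703 of all genes tested in that fit. The log2 difference of the RAC2 to RAC1 ratio ranged from 0.000912 to 0.32 with shRASSF2-1 against shCTRL, from -0.37 to -0.05 with shRASSF2-2 against shCTRL and from -0.42 to -0.34 in the direct comparison. edgeR with TMM on the recovered reads gave 3 up and 17 down with shRASSF2-1 and 16 up and 8 down with shRASSF2-2. It gave 19 higher and 5 lower in the direct comparison. Over all tested genes edgeR gave 4145 and 4584, 4655 and 4731, and 4471 and 4637, in the same order. The replicate number as a block gave 2 up and 17 down, 16 up and 8 down, and 21 higher and 5 lower. Over all tested genes that block gave 3949 and 4340, 4758 and 4368, and 4506 and 4248. Its limma adjusted p was 0.0512 for ARHGAP25 with shRASSF2-1 and 0.0548 for RAC2 in the direct comparison. Same-numbered libraries correlated at -0.156 to 0.120 in their deviations from the group means, over 0.1 in 1 of 9 pairs, so the numbers were not taken to pair the libraries. Of the fold changes of single genes under all of these settings, 1917 kept their side of the threshold and their direction, 64 lost the threshold, 29 gained it and 6 turned sign with a call before or after. Apart from the scaling, the cause of these changes was not tested. RAC3, TIAM2, DOCK1 and TIAM1 had the fewest counts, which limits their precision.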
